A study of Mus musculus with 3 samples.

Results

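The ADAM genes encode membrane proteins with a disintegrin and a metalloprotease domain. They were taken here as all transcript models of mouse testis whose gene symbol is Adam followed by a number and at most 1 letter, which leaves out the secreted Adamts proteases. The rule gave 33 genes of the 22426 gene symbols with a RefSeq-derived model, and 53 of the 50081 models in the table. Testis RNA came from wild-type C57BL/6J mice, with 1 CAGE library (capped 5′ ends) at 10.5 days post partum, 1 CAGE library in adults and 1 PAS-Seq library (polyadenylated 3′ ends) in adults. The table holds positions and exons of assembled transcripts for the series as a whole, with no read count and no value per library. No level of any ADAM RNA, no change between 10.5 days and the adult and no depth could therefore be given, and no difference below carries a test. Whether animals were pooled is not stated.

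ADAM proteins are made as precursors with a prodomain, a metalloprotease domain, a disintegrin domain, a cysteine-rich region and a membrane anchor. Several act as sheddases, which cut the outer part of other membrane proteins, whereas others have lost the zinc-binding motif and act through binding. Mice make an unusually large number of ADAM proteins in male germ cells, where they are carried on the sperm surface. Fertilin, a complex of ADAM1 and ADAM2, and cyritestin (ADAM3) are known from sperm passage into the oviduct and binding to the egg coat, and they depend on testis chaperones to fold.

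From general knowledge, and with earlier results of these data known, the members were placed in 4 groups. Testis or sperm genes numbered 20, epididymal genes 2 (Adam7 and Adam28), sheddase-type genes of other tissues 8 (Adam8, Adam9, Adam10, Adam12, Adam15, Adam17, Adam19 and Adam33) and non-catalytic genes known from neurons 3 (Adam11, Adam22 and Adam23). In the table, 41 models of members were RefSeq-derived and 12 were CUFF models, whose identifier has the form that the Cufflinks assembler gives, with an ADAM symbol beside it. Coordinates of models are mm9, counted from 1.

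The start windows of 4 members are shown because assembled models described below lie at Adam25, Adam20 and Adam6b, and these windows resemble each other. They are RefSeq windows of the GRCm38.p6 build, from 250 bases before to 50 after the annotated start. Adam25 (testase 2) at chr8:40751958-40752257 and Adam20 at chr8:40793023-40793322, both plus strand, had 284 identical bases in 304 alignment columns (93.4%), with 12 substitutions and 8 gap columns. Capitals mark the bases that differ or have no partner in the alignment.
Adam25: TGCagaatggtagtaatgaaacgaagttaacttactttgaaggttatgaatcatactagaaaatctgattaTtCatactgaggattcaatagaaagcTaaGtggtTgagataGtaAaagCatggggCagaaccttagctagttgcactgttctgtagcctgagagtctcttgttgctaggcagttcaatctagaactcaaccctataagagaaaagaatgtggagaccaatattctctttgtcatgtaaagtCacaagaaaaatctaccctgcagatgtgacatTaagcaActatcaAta
Adam20: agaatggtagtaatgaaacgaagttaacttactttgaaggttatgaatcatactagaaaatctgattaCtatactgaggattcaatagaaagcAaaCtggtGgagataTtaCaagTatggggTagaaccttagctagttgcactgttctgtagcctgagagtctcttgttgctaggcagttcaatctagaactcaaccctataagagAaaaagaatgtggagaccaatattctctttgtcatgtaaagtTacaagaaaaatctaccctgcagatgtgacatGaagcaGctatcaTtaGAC

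Adam6a at chr12:113543658-113543957 and Adam6b at chr12:113489315-113489614, also plus strand, are sperm surface genes. They were identical over 199 of 199 overlapping bases when their windows were shifted against each other, so that their annotated starts do not lie at the same base of the shared sequence. Capitals mark TATAAA and TAACNG, both on the reverse strand.
Adam6a: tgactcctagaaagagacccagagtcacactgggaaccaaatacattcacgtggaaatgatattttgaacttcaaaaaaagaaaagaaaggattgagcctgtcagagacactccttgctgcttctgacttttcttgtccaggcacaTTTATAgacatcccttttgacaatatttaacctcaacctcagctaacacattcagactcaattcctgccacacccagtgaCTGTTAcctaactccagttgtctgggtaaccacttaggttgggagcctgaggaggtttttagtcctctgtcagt
Adam6b: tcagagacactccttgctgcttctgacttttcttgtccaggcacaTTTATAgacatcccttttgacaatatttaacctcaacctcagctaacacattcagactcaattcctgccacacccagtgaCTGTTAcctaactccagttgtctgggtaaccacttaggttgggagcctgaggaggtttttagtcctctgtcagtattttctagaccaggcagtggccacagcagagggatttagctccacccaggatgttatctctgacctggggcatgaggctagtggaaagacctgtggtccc

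Each of these pairs ranked first of 136 pairs of the 17 members with a window by 1 of 2 measures, and the measures differed. In the gapped alignment of whole windows, Adam25 with Adam20 came first at 93.4% and Adam1a with Adam34 next at 55.8%, while Adam6a with Adam6b reached 49.6%. In the ungapped shift, Adam6a with Adam6b came first at 100% of the overlap and Adam25 with Adam20 next at 61.3%. The fertilin alpha genes Adam1a and Adam1b reached 52.6% in the gapped alignment and 38.2% in the ungapped shift. Only these windows were compared. The exons of these genes were not compared, and the placement of reads between them was not tested.

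By exon number the RefSeq-derived models took 3 forms. The genes Adam1a, Adam1b, Adam4, Adam6a, Adam6b and Adam30 were intronless, with 1 exon of 2271 nt (Adam6b) to 3092 nt (Adam1a). A further 9 had 2 exons: Adam20, Adam21, Adam24, Adam25, Adam26a, Adam26b, Adam29, Adam34 and Adam39. The remaining 18 had 16 (Adam10) to 30 exons (Adam22). No member had between 3 and 15 exons. All the intronless and all the 2-exon members belonged to the testis or sperm group, and the 5 other genes of that group, Adam2, Adam3, Adam5, Adam18 and Adam32, had 20 to 22 exons. Of all RefSeq genes, 13.1% had 1 exon in every model and 6.73% had at most 2 exons with at least 1 model of 2. Together 15 of the 33 members had at most 2 exons, against 19.9%.

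The 2-exon genes held nearly all their sequence in the last exon. The first exon ran from 29 nt in Adam24 (testase 1) to 383 nt in Adam21, with a median of 94 nt, and the last exon from 2257 nt in Adam26b to 2841 nt in Adam24, with a median of 2508 nt. A last exon of at least 2000 nt was present in 9 of 9, against 508 of 1531 (33.2%) of all genes whose longest RefSeq model has 2 exons. This limit lies below the shortest last exon of the 9, and the comparison was chosen after the data were seen. It is not matched for length, as the median spliced length was 2589 nt in the 9 and 1725 nt in the 1531. The intron of the 9 members varied far more than the exons, from 1348 bp in Adam25 to 33311 bp in Adam29. Adam25, Adam39 (1412 bp) and Adam20 (1442 bp) were alike in this, as were Adam26b (5869 bp) and Adam26a (5941 bp), and each of these sets lies together on chromosome 8.

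Spliced lengths of the 3 forms of testis gene overlapped. The median of the longest RefSeq model was 2434.5 nt for the 6 intronless genes, 2589 nt for the 9 with 2 exons and 2551 nt (range 2361 to 2791) for the 5 with many. The 8 sheddase-type genes had a median of 4197.5 nt, from 2989 nt in Adam15 to 7674 nt in Adam12, and the neuronal genes 5102 nt (Adam11), 6656 nt (Adam23) and 9068 nt (Adam22). Much of that difference lay in the last exon. It measured 140 nt in Adam18, 158 nt in Adam3, 173 nt in Adam5, 177 nt in Adam32 and 307 nt in Adam2 (fertilin beta). In contrast it measured 2118 nt in Adam17, the convertase of tumour necrosis factor, 2230 nt in Adam10, a protease of Notch and of the amyloid precursor, 3551 nt in Adam19 and 4797 nt in Adam12. Among the sheddase-type genes it was shorter in Adam15 (314 nt), Adam33 (554 nt), Adam8 (587 nt) and Adam9 (1400 nt). For the neuronal genes the contrast depends on taking the longest model. The shorter RefSeq models had 2777 and 2669 nt in Adam22 (last exon 147 nt) and 2878 nt in Adam23 (last exon 333 nt). These lie within the range of the testis or sperm genes, 2271 to 3092 nt. The shorter model of Adam11 had 4620 nt and lies above it.

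**Figure D1:**
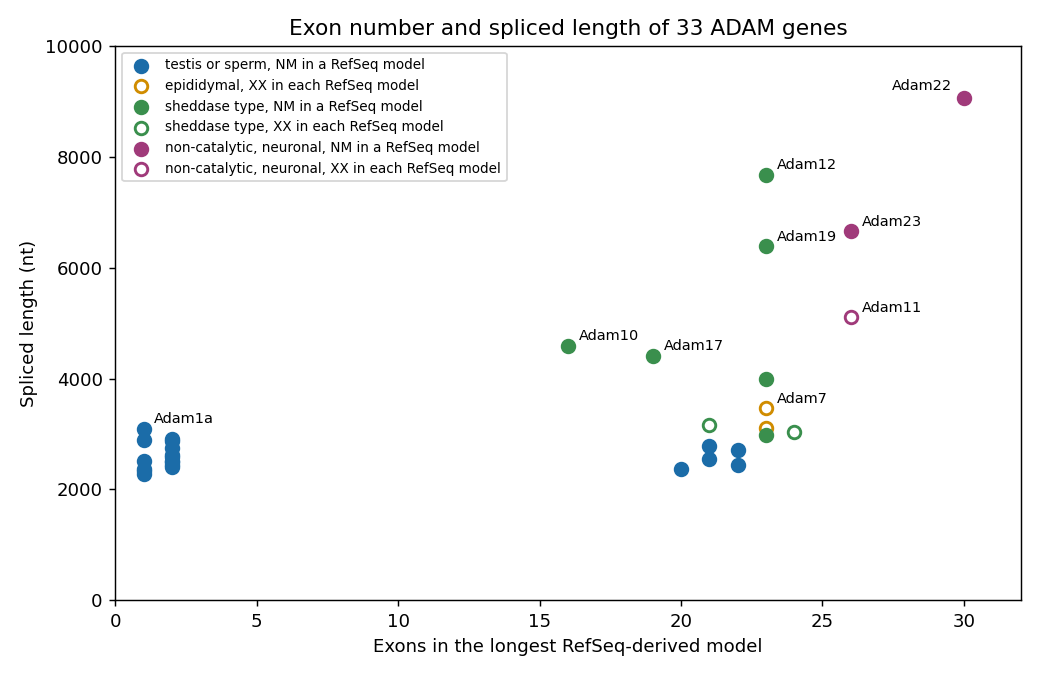
Exon number (x axis) and spliced length in nt (y axis) of the longest RefSeq-derived model of each of the 33 ADAM genes, coloured by group, with open circles where every RefSeq model is coded XX. The testis or sperm genes lie between 2271 and 3092 nt at 1, 2 or 20 to 22 exons, and Adam22 lies highest at 9068 nt. That model of Adam22 is coded XX, and the point is filled because the shorter RefSeq models are coded NM.

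The multi-exon members shared a pattern of exon lengths, which the choice of members did not use. In 16 of 18 an exon of 72 nt (14 genes) or 69 nt (Adam8 and Adam15) was followed by one of 158 to 170 nt, which was 167 nt in 9 genes and 170 nt in 5. Adam10 and Adam17 had no such pair. The run of 72, then 167, then 82 or 85 nt was present in 8 of 18 members: Adam2, Adam3, Adam11, Adam18, Adam19, Adam22, Adam32 and Adam33. Of 17873 other genes with at least 3 exons, 1 had it, Adamdec1, a soluble relative of the family that lies between Adam7 and Adam28, and none of the 19 Adamts genes did. This run was chosen after the lengths were seen.

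Lined up at that pair, exons kept their length modulo 3, the property that preserves the reading frame at each junction. Apart from the neuronal genes, 13 members had 18 exon positions in common, and in 14 of these positions all 13 lengths left the same remainder on division by 3, although lengths differed at 17 of the 18. An exon of 77 nt, the third before the 72 or 69 nt exon, was the same in all 13. Adam15 was the exception at 3 positions and Adam18 at 1. Adam15 has an exon of 305 nt where Adam33 has exons of 196 and 109 nt, whose sum is also 305. From there on the line-up holds Adam15 1 exon out of step, and its 3 exceptions are at that exon and later ones. The next exons are 196, 78, 73 and 139 nt in Adam15 and 199, 78, 109 and 145 nt in Adam33, with equal remainders in that order. For Adam15 these later positions, whether they agree or not, therefore do not compare matching exons. The neuronal genes Adam11, Adam22 and Adam23 had 24 positions in common, 12 of them identical in length and all 24 with 1 remainder.

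Among the 153 pairs of multi-exon members, the longest unbroken run of equal internal exon lengths was 12 exons, in Adam11 and Adam22, and 39 pairs shared a run of at least 3. Adam12 and Adam33 shared 7, Adam22 and Adam23 shared 6, and the neighbours Adam3 and Adam5 also shared 6. Adam2 shared 5 with Adam18 and 5 with Adam32. Outside the family no gene shared more than 3 with any member, and for 7 members the best outside gene was Adamdec1 alone. For some members outside genes other than Adamdec1 also reached 3, so a run of 3 is not particular to the family. Adam10 and Adam17 shared no run longer than 1 with any other member. Their best runs with an outside gene were longer, 3 for Adam10 and 2 for Adam17. The members are related, so the 153 pairs are not independent of each other.

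**Figure D2:**
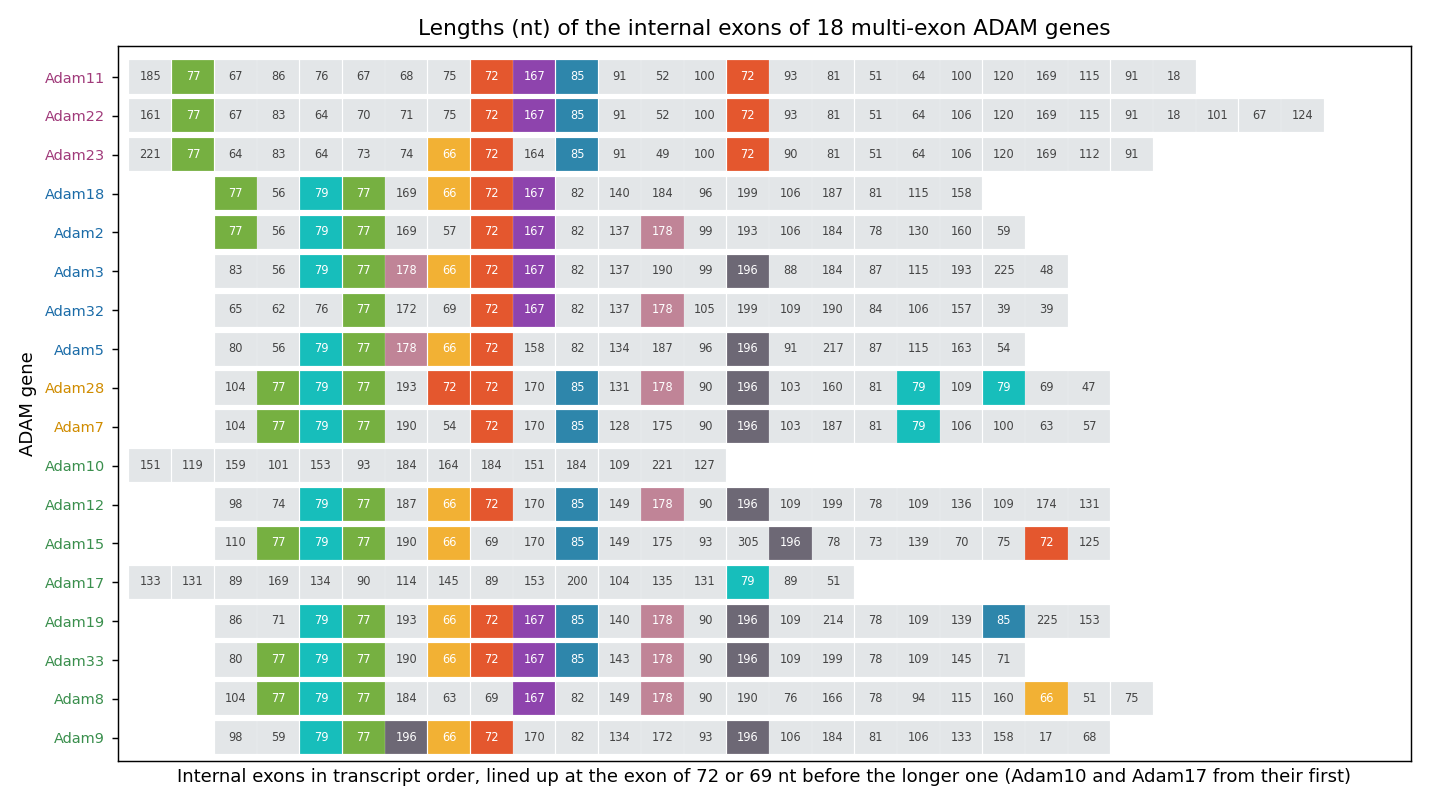
Internal exon lengths in nt, written in transcript order from left to right, for the 18 multi-exon ADAM genes (rows, names coloured by group as in the plot of exon number), lined up at the exon before the one of 158 to 170 nt. Coloured cells mark lengths found in at least 9 of the 18 genes, and 16 rows hold the 72 or 69 nt exon in the same column while Adam10 and Adam17 do not.

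Each model carries a code, which neither the labels nor the table explain. Of the 53 ADAM models, 41 had a code starting with NM and 12 one starting with XX, with no other code among them. At least 1 model with a code other than XX was present for 29 of 33 ADAM genes (87.9%), against a background of 62.3% over all RefSeq genes (13970 of 22426). With the code NM alone the counts were 29 of 33 against 59.3%, and with RefSeq-derived models alone 28 of 33 against 61.6%. The 4 genes with XX models alone were Adam7, Adam28, Adam11 and Adam33. The RefSeq model of Adam8 was also coded XX, and its only NM model was a CUFF model without an exon base of Adam8. A model coded other than XX was present for 20 of 20 genes of the testis or sperm group and 7 of 8 of the sheddase type. It was present for 2 of 3 of the neuronal group and 0 of 2 of the epididymal group. With RefSeq-derived models alone the sheddase type had 6 of 8, and the other groups were unchanged. RefSeq models of genes of other tissues are in the table, so a model alone does not show expression. The meaning of the code is not given, so it was not read as a measure of expression.

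The difference from the background was widest for the forms with few exons. All 6 intronless ADAM genes had a code other than XX, against 22.1% of the 2945 intronless RefSeq genes, and against 49.7% of 1185 when olfactory and vomeronasal receptor and microRNA symbols were left out. All 9 of the 2-exon genes had it, against 47.1%. Of the 18 multi-exon genes 14 had it, among them all 5 testis genes of this form, against 70.2%. With RefSeq-derived models alone, and so without Adam8, it was 13 of 18. The background was then 12468 of 17971, and the multi-exon share was near it. Every intronless and 2-exon member is a testis gene, so exon form and group could not be told apart in those forms. Among the Adamts genes, relatives without a membrane anchor, 10 of 19 had a code other than XX (52.6%). None of these differences was tested.

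**Figure D3:**
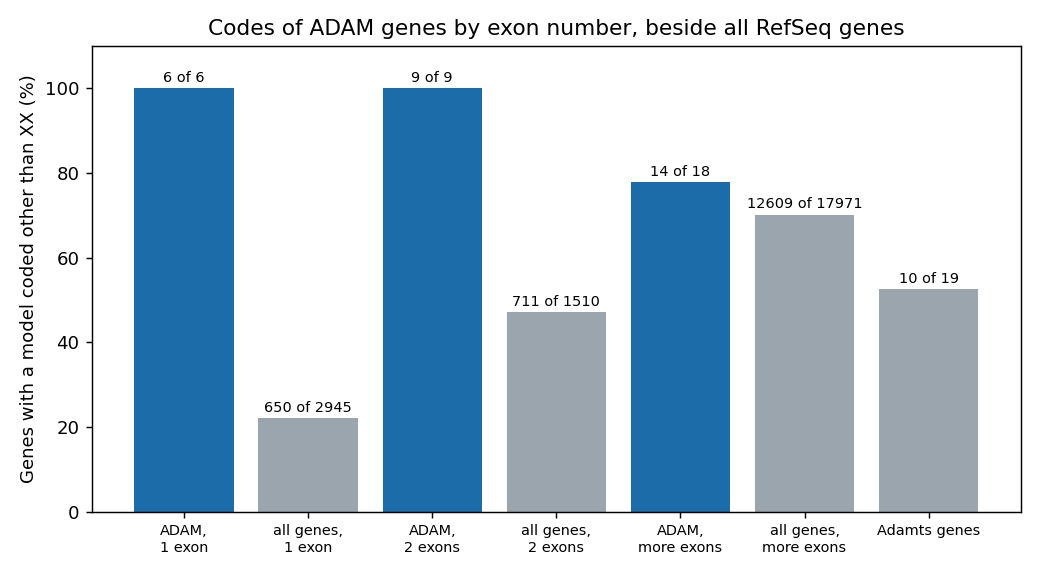
Share of genes in percent (y axis, from 0) with at least 1 model coded other than XX, for ADAM genes by exon number (blue) and for all RefSeq genes of the same exon number and the Adamts genes (grey), with numbers of genes above the bars. The ADAM shares are 6 of 6, 9 of 9 and 14 of 18, beside 22.1%, 47.1% and 70.2% of all genes. The 14 include Adam8, whose only model coded other than XX is a CUFF model without an exon base of Adam8. The ADAM genes of the first and second of these shares are all testis genes.

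Codes differed between models of the same gene in Adam8, Adam19 and Adam22. In Adam22, a receptor of the secreted protein LGI1 in neurons, the code went with the 3′ end. The RefSeq model and the CUFF model that end at 8072352 with a last exon of 6355 nt were both coded XX. The 2 RefSeq models and the CUFF model that end 19908 bp further upstream, at 8092260 with a last exon of 147 nt, were coded NM. Adam23 also had 2 ends, 23296 bp apart, but both of its models were coded NM. Adam28 had 3 RefSeq ends, at 69224084, 69224936 and 69225791 on chromosome 14, all coded XX.

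Genes known to work with ADAM proteins were mostly coded other than XX as well, and none of these counts was tested. The lists were chosen with earlier results of these data known. Of 23 genes for ADAM maturation and for sperm-egg partners, 22 had such a code, beside 62.3% of all RefSeq genes and 70.2% of those with more than 2 exons. Among them were the endoplasmic reticulum chaperones Clgn, Calr3 and Pdilt, the tyrosine sulfating enzyme Tpst2, the peptidase Ace, the surface proteins Tex101 and Ly6k, the proprotein convertases Pcsk4 and Furin, and Izumo1, the sperm protein of egg fusion. Rnase10, known from the epididymis, had XX models alone. Of 18 regulators of ADAM shedding, 17 had it beside the same shares, including the inhibitor Timp3 and the rhomboid-like trafficking factors Rhbdf1 and Rhbdf2, and Timp4 had not. Of the tissue markers, all 6 for germ cells, 3 for Sertoli cells and 3 for Leydig cells had a code other than XX, whereas of 4 epididymal markers Crisp1, which is also among the 23 above, had it and Lcn5, Lcn8 and Defb41 had not. The epididymal ADAM genes Adam7 and Adam28 had XX alone, as had those 3 but not Crisp1. Adam11 and Adam33, of other groups, also had XX alone.

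A CUFF model carried the symbol of 9 ADAM genes (12 models), against 28.5% of all RefSeq genes, and 24 members had none. These CUFF models gave most of the alternative starts and ends. More than 1 start or end, with positions within 50 nt counted as 1, was found in 11 of 33 ADAM genes, against 32.6% of RefSeq genes, which is near the background share. With RefSeq-derived models only, 3 genes had it (Adam22, Adam23 and Adam28), all through their ends. More than 1 start was found in 8 members (background 26.7%) and more than 1 end in 10 (background 23.0%). Of the 12 CUFF models, 9 had a start and 7 an end more than 50 nt from any RefSeq position of the gene they are named for. Among them are the start and the end of each of 3 models, described below, that share no exon base with that gene. These are not alternative positions of the named gene. With CUFF models taken by exon overlap and not by symbol, 11 genes again had more than 1 start or end.

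At 2 intronless testis genes the CUFF model was a longer version of the same exon. At Adam30 (chromosome 3) it ran from 97964536 to 97967703, 199 nt further upstream and 607 nt further downstream than the RefSeq model, 3168 nt in place of 2362 nt. At Adam6b (chromosome 12) it ran from 114727704 to 114730270, 72 nt further upstream and 224 nt further downstream, 2567 nt in place of 2271 nt. The RefSeq model of Adam6a had 2507 nt, 236 nt more than that of Adam6b, so the CUFF model of Adam6b is the closer of the 2 to Adam6a in length.

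At the multi-exon genes the CUFF models changed the ends of the gene or single exons. Adam32 (testis) had a CUFF start 91 nt upstream of the RefSeq start, an end 1 nt away, and 20 exons in place of 22, with 18 of its 19 introns shared. Adam12, a sheddase of myoblasts and placenta, had a CUFF start 201 nt upstream and an end 152 nt downstream of the RefSeq positions. Its 21 introns were all in the RefSeq model, which has 23 exons and so 1 intron more. The CUFF model covered all 7674 nt of the RefSeq exons, so that this intron lies within one of its exons. Adam22 had CUFF starts 37 nt upstream.

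Adam19, which sheds neuregulin, had the most CUFF models. One kept the RefSeq start and ended 15324 bp short of the RefSeq end, within intron 14, with 13 introns shared of the 22 in the RefSeq model. Another started 64912 bp downstream of the RefSeq start, in intron 8, and shared 14 introns. The third started 79778 bp downstream, in intron 15, shared 7 introns and was the only 1 of the 3 coded XX. Both late-starting models ended at the RefSeq end.

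The other 3 CUFF models did not touch the gene they are named for. A lack of exon overlap with any RefSeq model of the same symbol was found in 3 of 12 ADAM CUFF models (25%), against 3.12% of 8663 over the table. All 3 overlapped exons of another gene, as did 120 of the 270 such models in the table.

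CUFF.25204.1, named Adam39 (chromosome 8, 41837539 to 41882657), joined exons of a pair of other members. Its first exon of 107 nt ended at the same base as the first exon of Adam25 and began 23 nt before it. Its second exon of 2508 nt had exactly the start and the end of the second exon of Adam20. The intron between them was 42504 bp, where Adam25 has 1348 bp and Adam20 has 1442 bp, and the model ended 25706 bp before the start of Adam39. In the table, 17 of 8663 CUFF models (0.196%) overlapped at least 2 other symbols and not their own. The start windows of Adam25 and Adam20 are the pair shown above with 93.4% identity. The part of this similarity in the junction was not tested.

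CUFF.20772.2, named Adam1a (chromosome 5, 121950190 to 121953480), lay on Adam1b. Adam1a and Adam1b encode the forms of fertilin alpha known from the endoplasmic reticulum and from the sperm surface. The model was 1 exon of 3291 nt that covered 2800 of the 2884 nt of Adam1b, started 491 nt upstream of its RefSeq start and ended 84 nt before its RefSeq end. Its start was 15133 bp from the end of Adam1a, the next gene on the same strand. By symbol, then, Adam1a had 2 starts and Adam1b 1, and by position the reverse held.

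CUFF.24636.1, named Adam8 (chromosome 7, 147149098 to 147164043), began 797 bp past the end of Adam8 on the same strand. It had 6 exons, shared 3 of its 5 introns and 863 nt of exon with 6430531B16Rik, and had no exon base of Adam8. The gene 6430531B16Rik is named because it was found there. It was coded NM, whereas the 24-exon RefSeq model of Adam8, a protease of leukocytes, was coded XX. With CUFF models taken by exon overlap and not by symbol, the ADAM genes with a code other than XX numbered 28, since Adam8 then had XX alone. The number of members with a CUFF model stayed at 9 but only 6 genes were shared, with Adam1b, Adam20 and Adam25 in place of Adam1a, Adam8 and Adam39. This alternative was chosen after the data were seen.

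**Figure D4:**
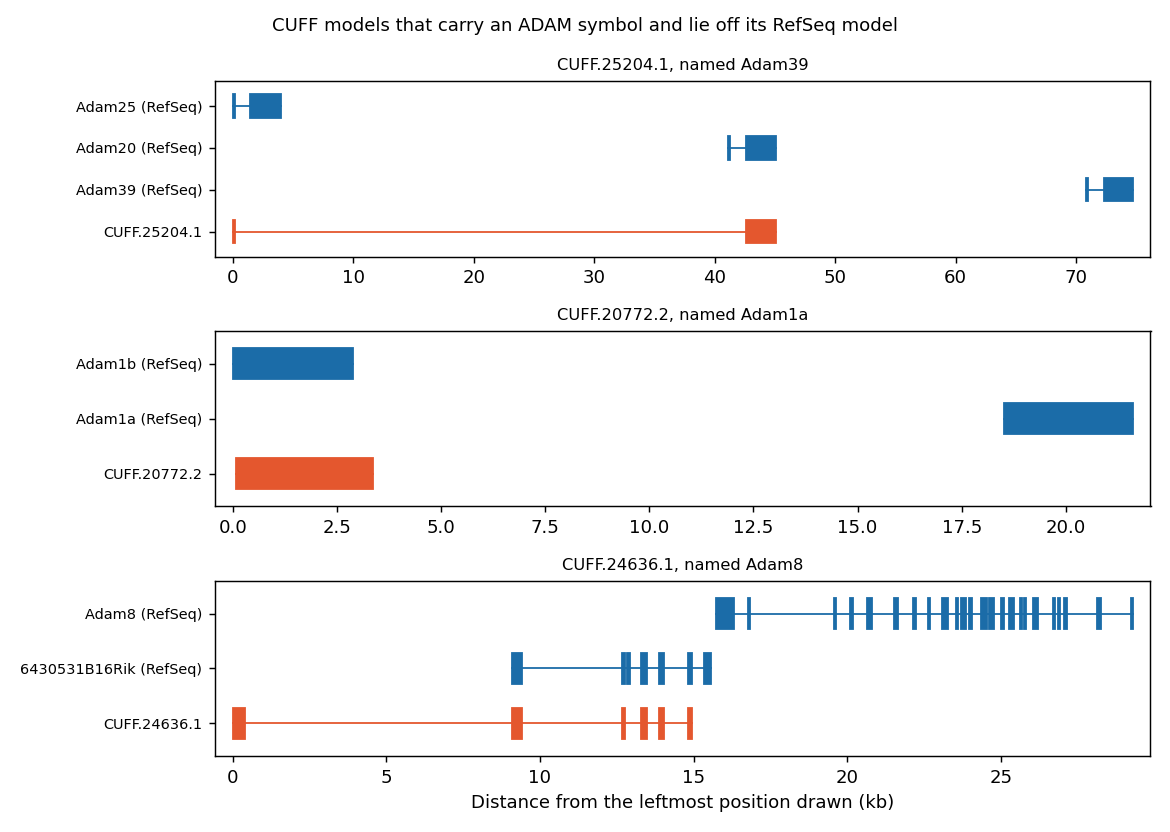
Exons (boxes) and introns (lines) of the 3 CUFF models (red) that carry the symbols Adam39, Adam1a and Adam8 and of the RefSeq models beside them (blue), against distance in kb from the leftmost position drawn in each panel. The red model in the upper panel starts with the first exon of Adam25 and ends with the last exon of Adam20, 25706 bp short of Adam39.

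Of the 33 members, 13 lay on chromosome 8 and 5 on chromosome 12. Adam18, Adam3, Adam5, Adam32 and Adam9 followed each other on the minus strand of chromosome 8 (25712718 to 26127394), with gaps of 2478, 7159, 11773 and 806 bp and no other RefSeq gene between them. This row joins 4 multi-exon testis genes to the broadly expressed sheddase Adam9, and all 5 were coded NM. Adam24, Adam25, Adam20 and Adam39 followed each other on the plus strand (41760448 to 41912215) with gaps of 70008, 37096 and 25705 bp, again with no other RefSeq gene between, and all had 2 exons. Adam26b, Adam26a and Adam34 formed another row, on the minus strand, in which Gm5346 lay between Adam26a and Adam34. Gm5346, now named Adam34l, has 1 exon of 2211 nt and was coded XX, unlike the intronless members. Elsewhere Adam6b and Adam6a (52072 bp apart) and Adam1b and Adam1a (15623 bp) were adjacent. Every neighbouring pair within a row or adjacent pair lay on the same strand.

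A few members met other transcripts. The start of Adam9 lay 289 bp from the start of Tm2d2 on the other strand. The last exon of Adam17 overlapped that of Iah1, on the other strand, by 99 nt, so reads there cannot be given to either gene without strand. The end of Adam12 lay 1668 bp from that of Fank1, on the other strand. Dcst1, which runs the same way, ended 225 bp before the start of Adam15.

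CUFF models without a symbol lay within 5000 bp of 3 members (4 models), against 20.4% of all RefSeq genes. The start of CUFF.24806.1, a single exon of 3079 nt, lay 29 bp from the RefSeq start of Adam12 and faced away from it, and the CUFF start of Adam12 overlapped it by 173 bp. CUFF.19308.1 (1 exon, 3882 nt) and CUFF.19308.2 (2 exons, 2782 nt) lay antisense inside intron 4 of the 29-exon RefSeq model of Adam22. CUFF.25200.1, of 2389 nt, lay 2169 bp past the end of Adam26b on the same strand. All 4 were coded XX. No testis gene other than Adam26b had such a neighbour.

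The start windows of intronless and 2-exon testis genes had less G and C than those of sheddase-type and neuronal members. Windows were found for 17 of the 33 members, 10 of them testis genes, and Adam19 had 3. The 10 testis genes were all intronless or 2-exon genes, and the other genes with a window had many exons. No epididymal gene and none of Adam2, Adam3, Adam5, Adam18 and Adam32 had a window. Group and exon form could therefore not be told apart here. The testis windows ranged from 35.3% in Adam29 to 51.0% in Adam1b, with a median of 39.5%. The 9 windows of sheddase-type and neuronal genes ranged from 49.3% in Adam19 to 73.3% in Adam10, with a median of 65.3%, and all 32851 windows had a median of 52.7%. The ranges overlapped only through 1 window of Adam19, which lay below that of Adam1b. CG dinucleotides did not overlap, with 0 to 4 in the testis windows and 5 to 32 in the others. Neighbouring copies share sequence, so these genes are not independent, and the comparison was chosen after the data were seen.

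Among motifs searched on both strands, TAACNG, part of the core bound by MYB factors such as A-MYB, the factor the series concerns, was present in 6 of 17 members: Adam1b, Adam6a, Adam6b, Adam26b, Adam29 and Adam34. All are testis genes, as are 10 of the 17 members with a window, and 23.3% of all windows held it. The testis windows had a median of 39.5% G and C against 52.7% in all windows, so this share is not matched for base content. TAACNG lay 51 bases before the start in Adam34, 82 in Adam29, 107 in Adam1b and 238 in Adam26b. In Adam6a and Adam6b it was the same stretch of shared sequence, 24 and 125 bases before the respective starts, counted to its first base in the window. TATAAA was present in 3 (Adam6a, Adam6b and Adam29; 13.6% of all windows) and TGACG, part of the site of CREB-type factors, in Adam10 alone (20.8% of all windows). The search letters do not overlap each other in these windows. A match is a description of the letters and not a binding site.

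**Figure D5:**
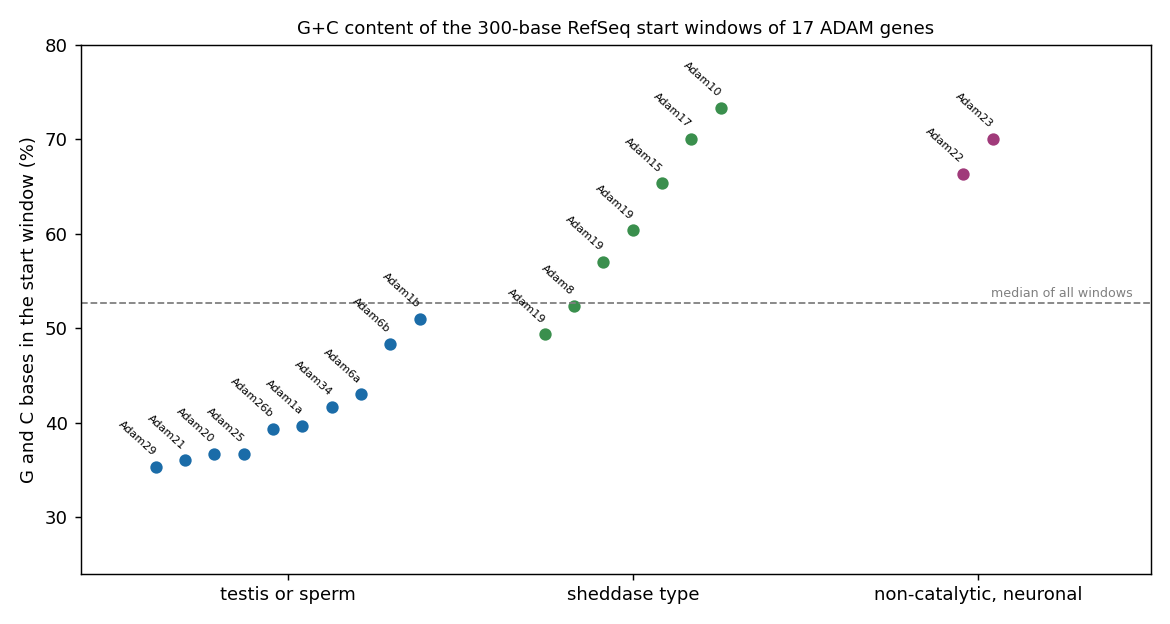
G and C bases in percent (y axis) of the 300-base RefSeq start window of 17 ADAM genes by group (x axis), 1 point per window with 3 for Adam19; the dashed line is the median of all windows, 52.7%. The testis points lie between 35.3% and 51.0%, and those of sheddase-type and neuronal genes between 49.3% and 73.3%.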

How the data were processed

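The authors deposited 1 headerless table of 12 columns for the series as a whole, with 1 transcript model per line (position, name, identifier, strand, code and exons). No column belongs to any of the 3 libraries, and which reads gave the models is not stated. TopHat2 2.0.4 and the mm9 build are named per the submitters' processing notes. How models were assembled, filtered and coded: not given in the sources used here. Columns for the coding part equal the whole transcript in all but 2 models, so coding exons were not counted. Nothing was filtered out.

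Models were grouped by symbol with Python 3.11.15 and pandas 2.3.3. Starts or ends within 50 nt were counted as 1, and exon overlap meant at least 1 shared base on the same strand. Start windows came from RefSeq for GRCm38.p6 and were aligned end to end with Biopython 1.88; no coordinates were converted. Functions were tested on simulated data. All 33 symbols matched a current RefSeq symbol. Protein sequences were not used here. The members, lists and groups were chosen with earlier results of these data known. Genes named are the members, the listed genes, CUFF models within 5000 bp and the nearest neighbours. Exon-length, G and C and window comparisons, and CUFF models by overlap, were chosen after the data were seen.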

Additional observations from a re-analysis of the deposited data

How the results depend on the processing

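No group had replicates and no test was run, so the alternatives show only how counts move. No paired analysis was possible because the results come from no test and each group is 1 library. The count of intronless members was 6 and became 15 when genes with at most 2 exons were included, an alternative added after the data were seen. Members with more than 1 start or end fell from 11 to 3 with RefSeq-derived models only. CUFF models without a symbol near a member rose from 4 to 11 within 20000 bp. The other counts stayed within 1.5 times: 29 members with a code other than XX became 28 with CUFF models taken by exon overlap and stayed at 29 with NM alone or with Gm5346 and Adamdec1 included. Counting exons of the coding part was not run. Depth is unknown.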
